A study of Homo sapiens with 8 samples.

Results

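The 34 glycolysis and lactate genes described here cover glucose uptake, the enzymes from hexokinase to pyruvate kinase, lactate production and export, the control of pyruvate dehydrogenase, and the oxygen-sensing factor HIF1A with its target VEGFA. They were taken by symbol from the 60234 genes of the deposited table, and each symbol stood on 1 row. Of the 34, 30 averaged 1 CPM or more (CPM being a count scaled to the total of its library) over the 8 libraries and entered the tests. The other 4, SLC2A4, PFKFB4, PGAM2 and FBP1, lay below that level. All libraries came from Rh41, an established human line of alveolar rhabdomyosarcoma, a cancer of muscle-like cells, that is positive for the PAX3-FOXO1 fusion. The control group held 4 libraries, and the siG9a group held 4 libraries in which G9a, the histone H3 lysine 9 methyltransferase encoded by EHMT2, was knocked down. The sample titles name the knockdown siG9a, while the series title names it shG9a. What the control cells received, the time after knockdown and the origin of the 4 biological replicates are not given in the sources used here, so the p-values measure the spread between these samples. All values come from 1 cell line.

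Glycolysis splits glucose into pyruvate in the cytosol, and cells that do not pass the pyruvate on to mitochondria turn it into lactate and export it. Its flow is set mainly at glucose uptake, hexokinase, phosphofructokinase and pyruvate kinase, and the PFKFB enzymes set the level of fructose 2,6-bisphosphate, the strongest known activator of phosphofructokinase. Many steps have tissue isoforms, and skeletal muscle favours PFKM, ALDOA, PGAM2 and ENO3 as its fibres mature.

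Reads came from transcript ends (QuantSeq 3′ libraries), so CPM does not depend on gene length and levels can be set side by side between genes, apart from differences in how well each 3′ end was captured. The libraries held 1458825 to 1938665 reads assigned to genes, so 1 read was worth 0.516 to 0.685 CPM and 3 reads, the floor used here, 1.55 to 2.06 CPM. EHMT2, taken from the highest of the 7 rows under its symbol, measured 57.6, 68.1, 87.3 and 88.3 CPM in control libraries 1 to 4 and 19.6, 35.1, 33.1 and 58.5 CPM in siG9a libraries 1 to 4. Every siG9a value was below the control value of its number, and siG9a library 4 was above control library 1. Its log2 difference of -1.10 (SE 0.31) did not pass the test (limma, adjusted p = 0.191), and with the replicate number as a block it did (limma, adjusted p = 0.000472). Libraries numbered 3 stood apart from the rest in both groups. The summed CPM of 12 rhabdomyosarcoma markers was 2268, 2079, 421 and 2235 in control libraries 1 to 4 and 1383, 1108, 360.2 and 1527 in siG9a libraries 1 to 4. MYOD1, the defining muscle factor, was read in every library and MYF5 was at 0 in all 8. Over 6 neural markers the sum ran from 189 CPM in control library 1 to 9611 CPM in control library 3, and from 220.3 CPM to 8929.97 CPM in the same siG9a numbers, nearly all from NEFL and NEFM. Markers of fibroblasts summed to 67.9 to 444 CPM, of epithelium to 10.3 to 75.6 CPM, of endothelium to at most 2.08 CPM and of blood to at most 6.28 CPM. The endothelial marker CDH5 was at 0 in all 8 libraries. Mitochondrially encoded genes took 9.18, 5.58, 4.68 and 4.59% of reads in control libraries 1 to 4 and 13.7, 11.4, 6.53 and 5.21% in siG9a libraries 1 to 4. Their share was thus higher in siG9a in every number. These reads are part of the total to which CPM is scaled, and their part in the members' values was not tested.

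Each member was compared between siG9a and control, which asks how these transcripts stood after G9a knockdown. Without the block, no member and none of all genes passed (limma, threshold 0.05 on the adjusted p; 0.00% of 15092 genes), while 4 members and 1880 genes (12.5%) had an unadjusted p under 0.05. With the replicate number as a block, 7 of the 30 tested members (23.3%) passed, against 11.4% of all tested genes. PFKFB3 was the 1 member that rose in this paired fit, where 4.86% of all genes rose. PFKP, ALDOA, GAPDH, ENO3, PKM and LDHB, 6 of those 30, fell in it, against 6.52% of all genes. Abundant genes were called more often in the whole table: of the 1886 genes that averaged 100 CPM or more, 24.7% passed the paired fit and 14.7% fell. The members at that level numbered 9, of which 5 (55.6%) passed, all of them falls. The median log2 difference of the 30 members was -0.18, with 19 below 0 (63.3%, against 48.9% of all tested genes) and 11 above, and the median of all tested genes was 0.01. In all 4 replicate numbers, 11 members (36.7%) were lower in siG9a, against 15.3% of all genes, and 2 members (6.67%), PFKFB3 and PDK1, were higher, against 14.9%.

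**Figure D1:**
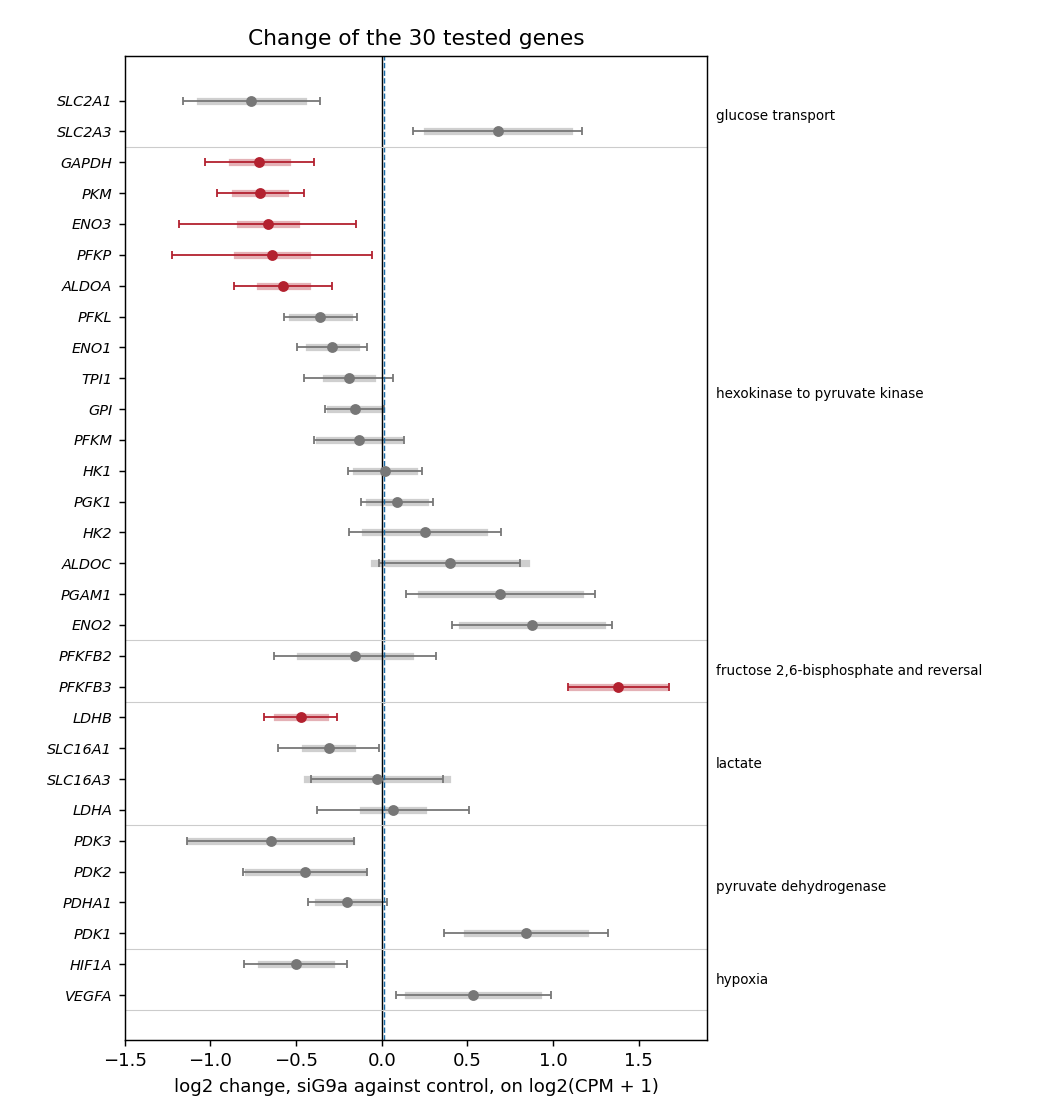
Difference in log2(CPM + 1) between siG9a and control for the 30 tested members, ordered by role, with the SE without the replicate block as a thin bar and with it as a thick band (n = 4 libraries a group). Red points passed limma with the block at an adjusted p under 0.05, and the dashed line is the median of all 15092 tested genes. PFKFB3 lies at 1.38, and the 6 members that passed below the line lie between -0.71 and -0.47.

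PFKFB3, the bifunctional enzyme that makes fructose 2,6-bisphosphate and is best known for its high kinase activity, was the member with the largest difference. It measured 12.3, 7.29, 11.7 and 7.27 CPM in control libraries 1 to 4 and 32.5, 23.0, 22.3 and 27.5 CPM in siG9a libraries 1 to 4. The lowest siG9a value was above the highest control value, and siG9a stood at 263, 316, 191 and 379% of the control of the same number. PFKFB3 was the only tested member without overlap between the groups (1 of 30, 3.33%, against 7.32% of all genes, and 3.88% with siG9a higher). These values rest on 18, 12, 19 and 14 reads in control and 63, 38, 39 and 48 reads in siG9a. The means were 9.64 ± 2.74 CPM in control (SD, n = 4) and 26.3 ± 4.73 CPM in siG9a (SD, n = 4), a log2 difference of 1.38 (SE 0.30) on the log2(CPM + 1) scale, which understates the change of low genes. It did not pass the test without the block (limma, adjusted p = 0.11) and rose in the paired fit (SE 0.27; limma, adjusted p = 0.00122). It also passed in each of the 10 paired fits run, in DESeq2 without the block (adjusted p = 0.00827), where it was the 1 member called against 1.93% of all genes, and in limma without both replicate 3 libraries (adjusted p = 0.0223). Of the 16 alternative fits without the block, PFKFB3 passed in only 3 (limma, edgeR or DESeq2, adjusted p = 0.00827 to 0.393).

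The other PFKFB genes did not share this pattern of values. PFKFB2, the isoform known from heart, ranged from 6.17 to 16.0 CPM in control and from 4.13 to 22.8 CPM in siG9a, a log2 difference of -0.16 (limma, adjusted p = 0.935) whose sign turned in edgeR and DESeq2 without the block. PFKFB4 had at most 1.82 CPM in any library and was not tested. Among the reads of PFKFB2, PFKFB3 and PFKFB4 together, PFKFB3 took 62.1, 41.4, 41.3 and 41.2% in control and 87.5, 71.7, 49.4 and 77.4% in siG9a. The share was higher in siG9a in 4 of 4 numbers, and siG9a library 3 was below control library 1. With few reads behind it, the share had a 95% Wilson interval of 44.0% to 77.3% in control library 1 and of 38.6% to 60.2% in siG9a library 3. These intervals overlapped, so the reads do not resolve the order of those 2 libraries. FBP1, the gluconeogenic enzyme that works against phosphofructokinase, was at or below the floor, with at most 0.57 CPM.

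**Figure D2:**
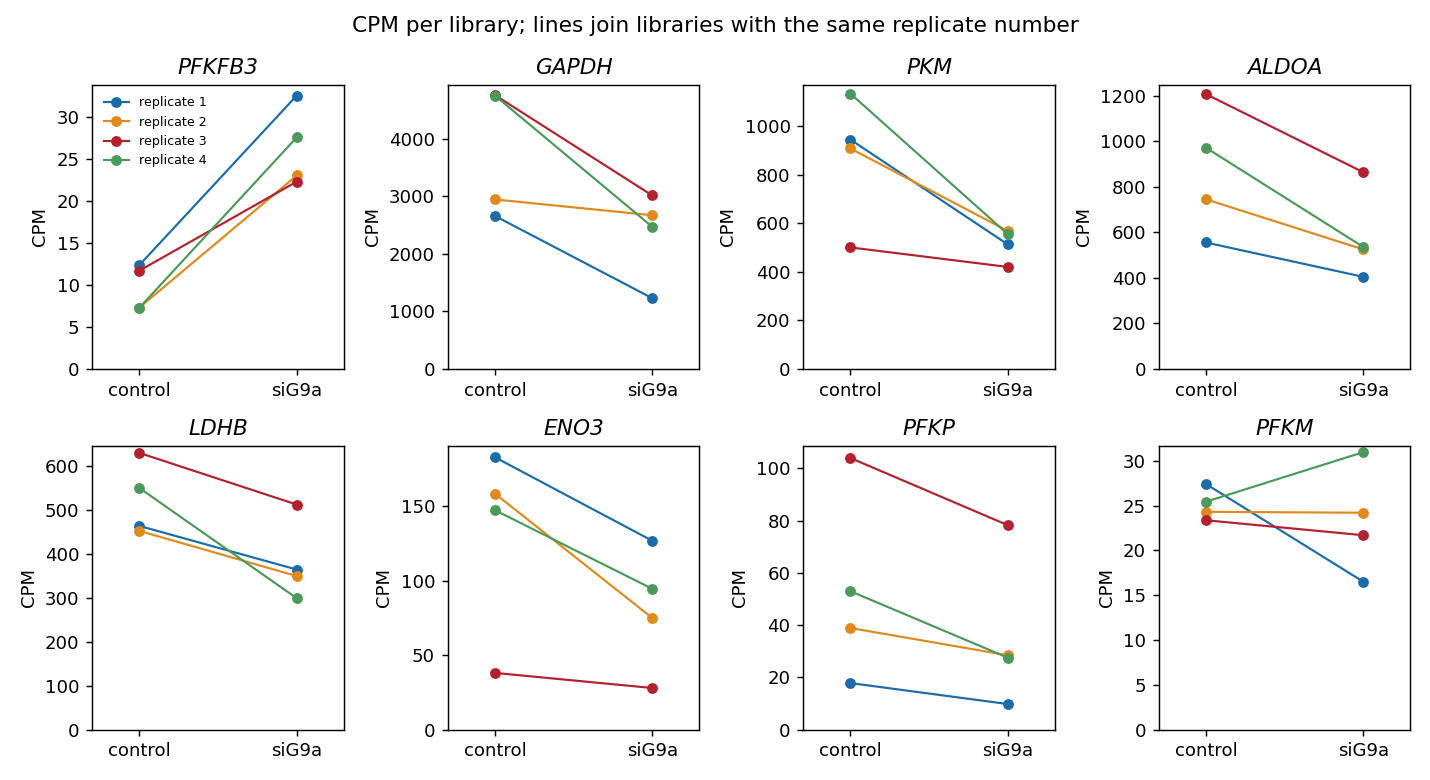
CPM of 8 members in each library, with 1 coloured line for each replicate number joining its control and siG9a libraries and each axis starting at 0. PFKFB3 is higher in siG9a on every line with no overlap, while GAPDH, PKM, ALDOA, LDHB, ENO3 and PFKP are lower on every line with overlap, and PFKM is lower on 3 of 4.

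Upstream sequences are shown for PFKFB3, the member that rose in the paired fit, for GAPDH, the most abundant member, and for ENO3, the muscle enolase. They were cut from RefSeq promoter windows on GRCh38.p14, all are on the plus strand, and they were kept to bases outside annotated exons. Capitals mark ACGTG or GCGTG read on either strand, the core letters of the element that HIF binds, with CACGTG, the E-box letters that MYC and other basic helix-loop-helix factors bind, counted as such a match.
PFKFB3, chr10:6144671-6144920: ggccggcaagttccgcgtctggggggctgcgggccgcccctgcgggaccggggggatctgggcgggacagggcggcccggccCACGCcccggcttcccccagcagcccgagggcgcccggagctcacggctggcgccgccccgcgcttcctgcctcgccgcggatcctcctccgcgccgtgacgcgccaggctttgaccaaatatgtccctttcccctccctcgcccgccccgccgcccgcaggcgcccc
PFKFB3, chr10:6202694-6202865: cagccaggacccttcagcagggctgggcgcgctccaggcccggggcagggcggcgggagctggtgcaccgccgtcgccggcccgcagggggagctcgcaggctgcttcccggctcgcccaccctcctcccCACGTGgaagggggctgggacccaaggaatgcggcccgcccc
GAPDH, chr12:6535142-6535263: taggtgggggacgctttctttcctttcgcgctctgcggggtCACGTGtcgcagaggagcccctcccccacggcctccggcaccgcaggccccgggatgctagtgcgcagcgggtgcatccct
ENO3, chr17:4950869-4951079: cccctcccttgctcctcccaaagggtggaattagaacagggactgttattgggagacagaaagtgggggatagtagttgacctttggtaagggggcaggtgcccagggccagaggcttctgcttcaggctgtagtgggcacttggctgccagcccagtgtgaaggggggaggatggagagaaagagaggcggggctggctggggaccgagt
The first PFKFB3 stretch ends at the annotated start and holds 1 core match, and the second holds CACGTG, as does the GAPDH stretch, while the ENO3 stretch shown holds no match. RefSeq gives ENO3 another start, whose window (chr17:4950302-4950551, not shown) holds 2 core matches and no CACGTG, and all windows of PFKFB3 and GAPDH are represented here. The second PFKFB3 stretch and those of GAPDH and ENO3 lie before starts inside the span that GENCODE gives the gene, between its exons. In the 250 bases before a start, CACGTG was found in 7 of 59 windows of the 29 members with an entry (11.9%), against 6.34% of all 35116 windows, and a core match in 33 (55.9%), against 43.2%. Windows of 1 gene can overlap and are not independent, and a match is a description of letters only.

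The glucose transporters among the members, SLC2A1, SLC2A3 and SLC2A4, were at low levels. This does not hold for all transporter genes outside the members. SLC2A8 ranged from 58.7 to 92.4 CPM in control and from 40.8 to 97.5 CPM in siG9a, while SLC2A10 had at most 3.63 CPM and SLC2A12 at most 3.69 CPM. SLC2A1, the widespread basal transporter GLUT1, measured 19.2, 9.72, 17.2 and 15.1 CPM in control libraries 1 to 4 and 17.0, 4.24, 7.99 and 8.03 CPM in siG9a libraries 1 to 4. It was lower in siG9a in 4 of 4 numbers with overlapping groups, and its log2 difference of -0.76 (SE 0.40) was not called without the block (limma, adjusted p = 0.469) or with it (limma, adjusted p = 0.104). SLC2A3, the high-affinity transporter typical of neurons, ranged from 1.56 to 7.99 CPM in control and from 4.24 to 11.3 CPM in siG9a (limma with the replicate block, adjusted p = 0.327). SLC2A4, the insulin-responsive transporter of mature muscle and fat, had at most 2.29 CPM.

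HK1, HK2 and GPI, the first enzymes of the pathway, were not called in either fit. HK1, the hexokinase bound to mitochondria in most tissues, measured 82.9, 115, 95.3 and 75.8 CPM in control libraries 1 to 4 and 74.3, 87.8, 114 and 97.5 CPM in siG9a libraries 1 to 4. Its groups overlapped throughout, with a log2 difference of 0.02 (limma, adjusted p = 0.983). HK2, the isoform of muscle and many tumours, ranged from 4.67 to 15.4 CPM in control and from 6.05 to 16.6 CPM in siG9a (limma with the replicate block, adjusted p = 0.713). GPI, which turns glucose 6-phosphate into fructose 6-phosphate, measured 227, 235, 239.8 and 235 CPM in control libraries 1 to 4 and 216, 205, 239.8 and 182 CPM in siG9a libraries 1 to 4. It was lower in siG9a in 4 of 4 numbers, by less than 1 CPM in number 3, with overlapping groups, and was not called (log2 difference -0.16; limma with the replicate block, adjusted p = 0.525).

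Of the 3 phosphofructokinase genes, PFKL, the liver type, was the most abundant, ranging from 79.4 to 123 CPM in control and from 62.4 to 84.9 CPM in siG9a, and was not called (limma with the replicate block, log2 difference -0.36, adjusted p = 0.182). PFKM, the muscle type (GRCh38 chr12:48105139-48146404, plus strand), measured 27.4, 24.3, 23.4 and 25.4 CPM in control libraries 1 to 4 and 16.5, 24.2, 21.7 and 31.0 CPM in siG9a libraries 1 to 4. Library 4 of siG9a had the highest PFKM value and library 1 the lowest, and the log2 difference of -0.13 passed neither without the block (limma, adjusted p = 0.891) nor with it (limma, adjusted p = 0.780). PFKP, the platelet type (chr10:3066333-3137712, plus strand), measured 17.8, 38.9, 104 and 53.0 CPM in control libraries 1 to 4 and 9.80, 28.4, 78.2 and 27.5 CPM in siG9a libraries 1 to 4. The libraries numbered 3 were highest and those numbered 1 lowest in both groups, a range wider than the difference between groups. Within numbers, siG9a stood at 55.0, 73.2, 75.3 and 52.0% of control, and PFKP fell in the paired fit (log2 difference -0.64, SE 0.20; limma, adjusted p = 0.0394) but not without the block (SE 0.58; limma, adjusted p = 0.707). The paired call was lost whichever pair was left out (limma with the block, adjusted p = 0.101 to 0.125) and in DESeq2 with the block (adjusted p = 0.11). PFKM took 20.8, 15.0, 9.34 and 16.1% of phosphofructokinase reads in control and 18.6, 18.8, 12.4 and 21.6% in siG9a.

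ALDOA, the aldolase of muscle that cleaves fructose 1,6-bisphosphate (chr16:30064164-30070457, plus strand), measured 555, 745, 1207 and 972 CPM in control libraries 1 to 4 and 404, 525, 864 and 536 CPM in siG9a libraries 1 to 4. Every siG9a value was below its numbered control, at 72.8, 70.4, 71.6 and 55.1% of it, and the groups overlapped only through siG9a library 3. Without both libraries numbered 3, ALDOA ranged from 555 to 972 CPM in control and from 404 to 536 CPM in siG9a, with no overlap. ALDOA fell in the paired fit (log2 difference -0.58, SE 0.14; limma, adjusted p = 0.00657) and in all 10 paired fits run, and was not called without the block (SE 0.29; limma, adjusted p = 0.439). ALDOC, the brain-type aldolase, was near the floor, ranging from 1.22 to 2.08 CPM in control and from 1.55 to 4.57 CPM in siG9a.

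GAPDH, which makes the NADH of glycolysis (chr12:6533927-6538374, plus strand), had the highest level of the 34 genes. It measured 2659, 2945, 4759 and 4751 CPM in control libraries 1 to 4 and 1229, 2670.4, 3015 and 2469 CPM in siG9a libraries 1 to 4. Control libraries 3 and 4 were the highest and siG9a library 1 the lowest, and siG9a stood at 46.2, 90.7, 63.3 and 52.0% of the numbered control. The means were 3779 ± 1134 CPM in control (SD, n = 4) and 2346 ± 778 CPM in siG9a (SD, n = 4), and the log2 difference of -0.71 was not called without the block (SE 0.32; limma, adjusted p = 0.385). In the paired fit GAPDH fell (SE 0.16; limma, adjusted p = 0.00453), and the call was lost without pair 1 (limma with the block, adjusted p = 0.0564). The table lists 58 GAPDH pseudogenes, which summed to 0.57 to 6.67 CPM in a library. How reads shared with them were counted is not given in the sources used here.

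The steps on either side of GAPDH were not called. TPI1, which interconverts the triose phosphates, ranged from 267 to 509.8 CPM in control and from 238 to 472 CPM in siG9a and was lower in siG9a in 4 of 4 numbers (limma with the replicate block, adjusted p = 0.398). PGK1, which makes ATP from the GAPDH product, measured 85.7, 83.2, 104 and 78.4 CPM in control libraries 1 to 4 and 116, 89.0, 97.6 and 74.0 CPM in siG9a libraries 1 to 4. Its groups overlapped, with a log2 difference of 0.09 (limma, adjusted p = 0.910). PGAM1, the phosphoglycerate mutase of most tissues, measured 0, 0.61, 3.69 and 0.52 CPM in control libraries 1 to 4 and 2.58, 0.61, 4.00 and 1.72 CPM in siG9a libraries 1 to 4. It was thus read by at most 7 reads in a library. The 13 PGAM1 pseudogenes listed summed to at most 1.82 CPM, and to up to 298% of PGAM1 in a library where PGAM1 was read. How reads shared with them were counted is not given in the sources used here. Whether this lowered the PGAM1 count was not tested. PGAM2, the muscle mutase, measured 0, 0, 0.61 and 0.52 CPM in control libraries 1 to 4 and 0, 0, 0 and 0 CPM in siG9a libraries 1 to 4. A single read in each of 2 control libraries lies under the floor of 3 reads, so no difference was detectable at this depth.

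ENO3, the muscle enolase (chr17:4948092-4957131, plus strand), measured 183, 159, 38.1 and 147 CPM in control libraries 1 to 4 and 127, 75.0, 28.0 and 94.6 CPM in siG9a libraries 1 to 4. Both libraries numbered 3 were far below the others of their group, which is the reverse of most members. Within numbers, siG9a stood at 69.3, 47.3, 73.4 and 64.2% of control, and without number 3 the groups did not overlap (147 to 183 CPM in control and from 75.0 to 127 CPM in siG9a). ENO3 was not called without the block (log2 difference -0.67, SE 0.52; limma, adjusted p = 0.653) and fell in the paired fit (SE 0.16; limma, adjusted p = 0.00902), a call lost without pair 2 (limma with the block, adjusted p = 0.137). The markers of muscle differentiation moved with it: their summed CPM was 5486, 4879, 1469.7 and 5191 in control and 3578, 3041, 1208 and 3395 in siG9a, and 6 of the 14 tested fell in the paired fit (limma, adjusted p under 0.05), none rising. Of the 11 tested rhabdomyosarcoma markers, 7 fell in it and none rose, where 6.52% of all genes fell and 4.86% rose. The part of these markers in the ENO3 result was not tested. In bulk samples, fewer cells of a type and less RNA per cell cannot be told apart.

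ENO1, the enolase of most tissues, measured 1016, 1059, 1350.4 and 949.7 CPM in control libraries 1 to 4 and 942, 766, 1098 and 781 CPM in siG9a libraries 1 to 4. It was lower in siG9a in 4 of 4 numbers, without overlap once number 3 was left out, and was not called (limma with the replicate block, log2 difference -0.29, adjusted p = 0.180). ENO2, the neuronal enolase, ranged from 0.69 to 4.30 CPM in control and from 3.44 to 8.56 CPM in siG9a, and was not called (limma, adjusted p = 0.480; with the block 0.175).

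PKM, the pyruvate kinase of muscle and tumours (chr15:72199029-72231822, minus strand), measured 944, 907, 499.9 and 1133 CPM in control libraries 1 to 4 and 512, 568, 419.6 and 555 CPM in siG9a libraries 1 to 4. Like ENO3 it was lowest in the libraries numbered 3, where the 2 groups were also closest, at 83.9% of control. Without number 3, PKM ranged from 907 to 1133 CPM in control and from 512 to 568 CPM in siG9a, with no overlap. The means were 871 ± 266 CPM in control (SD, n = 4) and 514 ± 66.9 CPM in siG9a (SD, n = 4), and the log2 difference of -0.71 did not pass without the block (SE 0.25; limma, adjusted p = 0.287). PKM fell in the paired fit (SE 0.14; limma, adjusted p = 0.00192), in all 10 paired fits run, and in limma without both replicate 3 libraries (adjusted p = 0.0337). Of the 16 alternative fits without the block, PKM passed in only 2 (limma, edgeR or DESeq2, adjusted p = 0.0337 to 0.587). The PKM1 and PKM2 splice forms share the 3′ end that was read and cannot be told apart in these data.

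Summed over the 17 enzymes from hexokinase to pyruvate kinase, CPM was 6162, 6759, 9079 and 8856 in control and 3961, 5416, 6557 and 5242 in siG9a. The sum was lower in siG9a in 4 of 4 numbers, at 64.3, 80.1, 72.2 and 59.2% of control, and siG9a library 3 was above control library 1. Without GAPDH the sum was 3503, 3814, 4319.8 and 4105 in control and 2733, 2746, 3542 and 2773 in siG9a, again lower in every number. Of the 16 tested enzymes, 5 fell in the paired fit and none rose, against 6.52% of all genes falling and 4.86% rising, and 14.7% falling among genes that averaged 100 CPM or more.

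Lactate is made by lactate dehydrogenase, a tetramer of A and B chains encoded by LDHA and LDHB. LDHB (chr12:21635342-21757857, minus strand), the chain of heart and oxidative tissues, measured 464, 453, 630.3 and 550.4 CPM in control libraries 1 to 4 and 365, 349.8, 513 and 299 CPM in siG9a libraries 1 to 4. Every siG9a value was below its numbered control, at 78.6, 77.3, 81.3 and 54.4%, and siG9a library 3 lay within the control range. LDHB was not called without the block (log2 difference -0.47, SE 0.21; limma, adjusted p = 0.392) and fell in the paired fit (SE 0.14; limma, adjusted p = 0.0290). That call was lost whichever pair was left out (limma with the block, adjusted p = 0.0592 to 0.106). LDHA, the chain of glycolytic muscle, measured 42.5, 40.1, 138 and 42.6 CPM in control libraries 1 to 4 and 56.2, 40.5, 129.6 and 40.7 CPM in siG9a libraries 1 to 4. The libraries numbered 3 stood far above the others in both groups, and the log2 difference of 0.07 was small beside that spread (SE 0.44; limma, adjusted p = 0.970). LDHB took 91.6, 91.9, 82.1 and 92.8% of the reads of both genes in control and 86.6, 89.6, 79.8 and 88.0% in siG9a, lower in every number with overlap.

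Lactate leaves the cell through monocarboxylate carriers. SLC16A1, the carrier MCT1 of most tissues, measured 249.5, 296, 539 and 309 CPM in control libraries 1 to 4 and 182, 247, 433 and 267 CPM in siG9a libraries 1 to 4. It was lower in siG9a in 4 of 4 numbers with overlap and was not called (limma with the replicate block, log2 difference -0.31, adjusted p = 0.149). SLC16A3, the exporter MCT4 of highly glycolytic cells, was near the floor at 2.74, 2.43, 4.30 and 3.12 CPM in control libraries 1 to 4 and 2.06, 3.63, 4.57 and 2.29 CPM in siG9a libraries 1 to 4. It took at most 1.45% of the reads of the 2 carriers in any library.

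**Figure D3:**
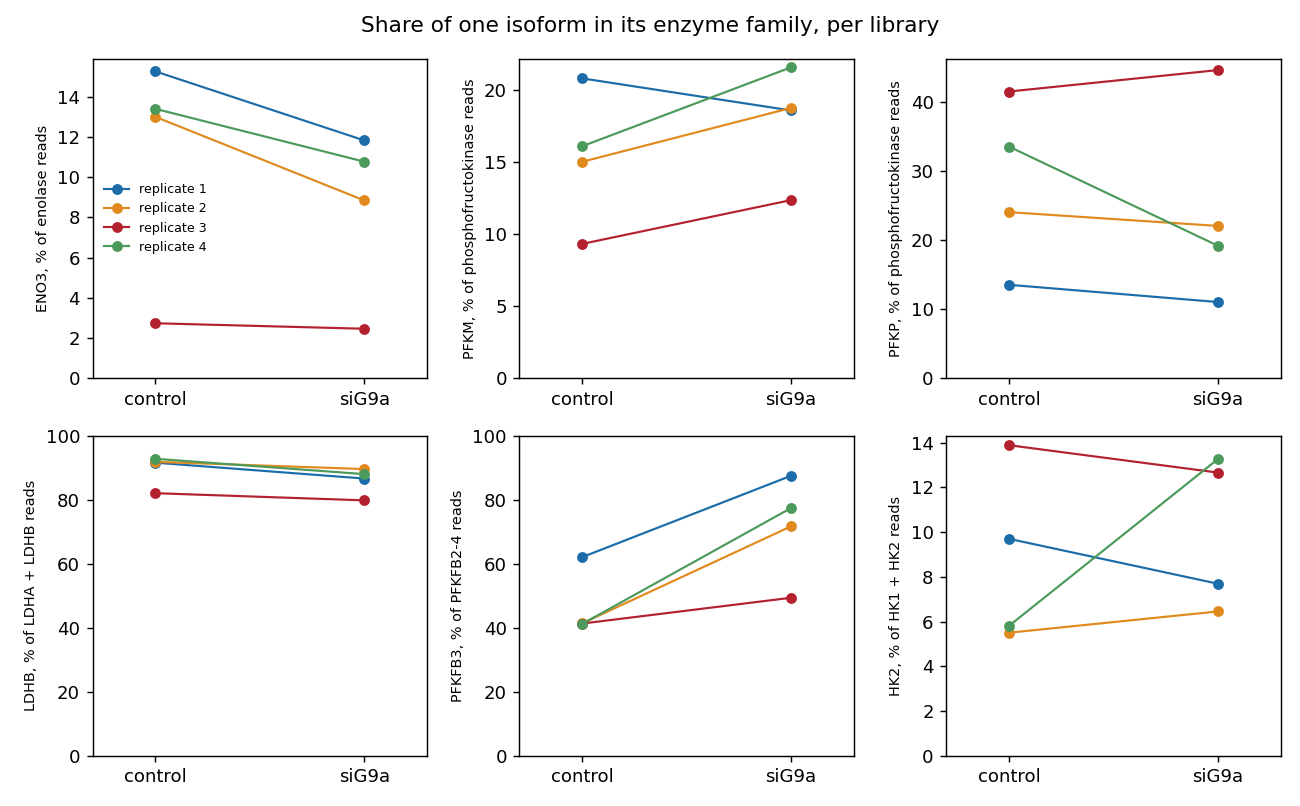
Share of each isoform in the reads of its enzyme family, in percent, for every library, with lines joining libraries of the same replicate number. ENO3 and LDHB took a lower share in siG9a in every number and PFKFB3 a higher one, and the libraries numbered 3 held the lowest ENO3 and LDHB shares of both groups.

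Across the isoform shares, the muscle enolase took 15.3, 13.0, 2.74 and 13.4% of enolase reads in control and 11.8, 8.84, 2.46 and 10.8% in siG9a. The ENO3 share was lower in siG9a in 4 of 4 numbers, and between numbers 3 and 1 it varied more than between the groups. The brain-type forms took small shares whose measured values did not overlap. ENO2 had at most 0.330% of enolase reads in control and at least 0.337% in siG9a. ALDOC had at most 0.246% of aldolase reads in control and at least 0.320% in siG9a. Both rest on few reads, since ALDOC had at most 8 and ENO2 at most 15 in a library. The Wilson intervals of ENO2 were 0.160% to 0.680% in control library 4 and 0.163% to 0.693% in siG9a library 1. Those of ALDOC were 0.0676% to 0.894% in control library 1 and 0.109% to 0.937% in siG9a library 4. These intervals overlapped, so the reads do not resolve the separation of either share. In number 4, both shares were higher in siG9a although the CPM of both genes was lower. In the other numbers both were higher. HK2 took 5.50% to 13.9% of the reads of HK1 and HK2 in control and 6.45% to 13.3% in siG9a.

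The fate of pyruvate in mitochondria is gated by pyruvate dehydrogenase, whose catalytic chain is encoded by PDHA1 and which the PDK kinases switch off. PDK1, a kinase known as a HIF target, measured 2.74, 6.68, 11.7 and 3.12 CPM in control libraries 1 to 4 and 7.74, 7.87, 21.1 and 8.03 CPM in siG9a libraries 1 to 4. It was higher in siG9a in 4 of 4 numbers and, without number 3, did not overlap between groups. It was not called without the block (log2 difference 0.84, SE 0.48; limma, adjusted p = 0.508) or with it (limma, adjusted p = 0.116). PDK2 ranged from 5.53 to 13.7 CPM in control and from 5.45 to 7.74 CPM in siG9a, and PDK3 from 1.37 to 7.29 CPM in control and from 0.61 to 2.85 CPM in siG9a. PDHA1 ranged from 52.1 to 93.5 CPM in control and from 55.1 to 73.1 CPM in siG9a (limma with the replicate block, adjusted p = 0.513). Of these 4 genes none passed in either fit.

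HIF1A encodes the factor that accumulates at low oxygen and drives many glycolytic genes, and its activity is controlled mostly through the stability of the protein, which these data do not measure. It measured 93.2, 86.3, 68.3 and 143 CPM in control libraries 1 to 4 and 112, 47.8, 65.7 and 54.5 CPM in siG9a libraries 1 to 4. It was lower in siG9a in 3 of 4 numbers and was not called without the block (log2 difference -0.50, SE 0.30; limma, adjusted p = 0.533) or with it (limma, adjusted p = 0.120), and it passed the paired fit without pair 1 (limma, adjusted p = 0.0402). VEGFA, the angiogenic growth factor used as a read-out of HIF, measured 2.06, 4.86, 7.38 and 3.63 CPM in control libraries 1 to 4 and 4.64, 3.63, 11.99 and 8.03 CPM in siG9a libraries 1 to 4. Its groups overlapped, and it was not called (limma, log2 difference 0.53, adjusted p = 0.686).

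**Figure D4:**
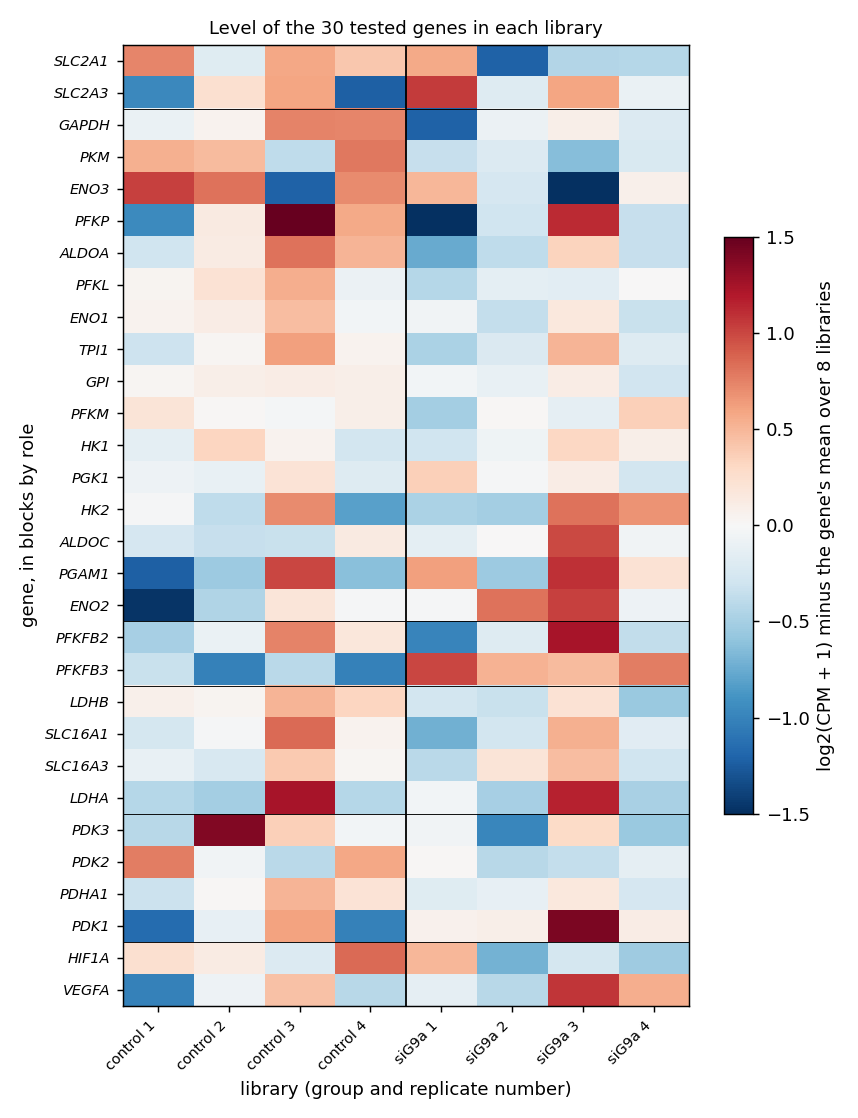
Values of log2(CPM + 1) minus the gene's mean over the 8 libraries, for the 30 tested members (rows, by role) in each library (columns). Libraries numbered 3 are the highest of their group for 17 members and the lowest of their group for ENO3 and PKM.

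The libraries numbered 3 often lay at the edge of their group. They were the highest of both groups for 17 of the 30 members (56.7%, against 20.1% of all tested genes) and the lowest of both for 2, ENO3 and PKM (6.67%, against 19.8%). The neural and muscle marker sums given above also lay at their extremes in those libraries, and their part in the members' values was not tested. Without number 3, the values of 8 members (26.7%) did not overlap between 3 libraries and 3, against 22.0% of all genes. GPI, ALDOA, ENO1, ENO3, PKM and LDHB were then lower, against 11.5% of all genes, and PFKFB3 and PDK1 higher, against 10.5%. Limma without the block called 2 members, PFKFB3 and PKM, in those 6 libraries, where it called 2.74% of all genes. With the block and without number 3 it called 5, PFKFB3, ALDOA, GAPDH, ENO3 and PKM, against 7.14% of all genes.

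Among other genes of sugar metabolism, counted in lists by role, none passed without the block (limma, 0.00% of all genes). With it, 1 of 14 tested genes of the wider glycolysis and lactate list rose and none fell, 1 of 10 in pyruvate entry into mitochondria fell, 1 of 8 glycogen genes fell, 2 pentose phosphate genes fell, and of 19 genes of oxygen sensing and HIF targets 1 rose and 1 fell (limma, adjusted p under 0.05; 11.4% of all genes). H6PD, the pentose phosphate dehydrogenase of the endoplasmic reticulum, measured 55.5, 35.9, 17.8 and 46.2 CPM in control libraries 1 to 4 and 11.3, 12.1, 7.42 and 32.1 CPM in siG9a libraries 1 to 4. It was lower in siG9a in 4 of 4 numbers, and it fell in all 10 paired fits run (log2 difference -1.34, SE 0.26; limma with the replicate block, adjusted p = 0.00122; without the block 0.255). MPC1, a subunit of the carrier that brings pyruvate into mitochondria, measured 38.4, 30.4, 72.0 and 58.1 CPM in control libraries 1 to 4 and 15.0, 19.97, 32.5 and 29.2 CPM in siG9a libraries 1 to 4. It too was lower in 4 of 4 numbers with overlap and fell in all 10 paired fits (log2 difference -0.99, SE 0.21; limma with the replicate block, adjusted p = 0.00243; without the block 0.259).

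The other 5 calls described here were each lost when some pair was left out, and none of them passed without the block (limma, adjusted p of 0.274 or more). TXNIP, which curbs glucose uptake, was higher in 4 of 4 numbers, ranging from 50.4 to 122 CPM in control and from 77.1 to 246 CPM in siG9a (log2 difference 0.61; limma with the replicate block, adjusted p = 0.0144, and up to 0.127 with a pair left out). PGD, an NADPH-making enzyme of the pentose phosphate pathway, ranged from 98.4 to 255 CPM in control and from 107 to 146 CPM in siG9a and fell by 0.60 on the log2 scale (limma with the replicate block, adjusted p = 0.0204; up to 0.198). PGD was not lower in siG9a in every number. GYS1, the glycogen synthase of muscle, ranged from 172 to 249 CPM in control and from 76.9 to 205 CPM in siG9a and fell by 0.67 on the log2 scale (limma with the replicate block, adjusted p = 0.0229; up to 0.286). ARNT, the partner of HIF1A, ranged from 20.3 to 26.7 CPM in control and from 29.1 to 48.8 CPM in siG9a without overlap (limma with the replicate block, log2 difference 0.67, adjusted p = 0.0483; 0.0612 to 0.181 with a pair left out). P4HA2, a collagen prolyl hydroxylase and HIF target, ranged from 7.79 to 16.4 CPM in control and from 1.21 to 7.46 CPM in siG9a, also without overlap (limma with the replicate block, log2 difference -1.43, adjusted p = 0.0273; up to 0.212 with a pair left out).

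Genome positions are those of GENCODE release 29 on GRCh38, in which the last 500 bases of 14 of the 34 members overlap another gene. Those of ALDOA, PFKP and LDHB overlap a gene on the same strand that is not used here, and the antisense gene at the end of GAPDH had at most 0.61 CPM. The end of ALDOC overlaps AC005726.1 on the same strand, which had 0.57 to 5.47 CPM. On the opposite strand, SLC16A3 overlaps CSNK1D (61.1 to 94.6 CPM) and PGAM2 overlaps DBNL (30.3 to 78.4 CPM). Whether the counting used strand is not given in the sources used here, so reads of such neighbours cannot be told apart from those of the members.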

How the data were processed

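Transcript ends were sequenced in 8 libraries of Rh41 cells, 4 control and 4 siG9a. The authors deposited CPM per the file headers, that is counts scaled to the library total, to 2 decimals. The submitters' processing notes name FastQC 0.11.8, Trim Galore, STAR 2.5.0a, HTSeq 0.8.0, edgeR 3.28 and the builds GRCh38 and hg19. The annotation, the use of strand and the role of each build are not given in the sources used here. All non-zero values were whole multiples of 1 read (100%), so whole reads were recovered for count tests. Within groups, every pair of libraries differed by more than sampling noise (chi-square over its degrees of freedom, 5.90 to 28.7). Floors and Wilson intervals cover counting error only.

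Groups were compared by limma 3.58.1 under R 4.3.3 (lmFit, eBayes with trend, two-sided) on log2(CPM + 1) for 15092 genes that averaged 1 CPM or more, adjusted by Benjamini-Hochberg over all of them, with the group as its only term. A second fit added the replicate number as a block and is called paired. The numbers come from the sample titles, which do not explain them. Deviations from group means correlated, across genes, by 0.500, 0.104, 0.673 and 0.130 for libraries 1 to 4 of the same number. All were over 0.1, and the numbers were taken as pairs. Control library 2 correlated more with siG9a library 4 (0.144), and control library 4 correlated with siG9a library 2 by 0.0913. These values thus do not tell the labelled pairs 2 and 4 from swapped ones, and the paired calls rest on the labels.

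Alternatives without the block were pseudocounts of 0.1 and 5, no filter, a filter of 5 CPM and median-ratio scaling. Also run without it were edgeR 4.0.16 and DESeq2 1.42.0 on the recovered reads, and fits with libraries left out. The block was run with the same pseudocounts, the scaling, edgeR and DESeq2, and with pairs left out. Values of every library are given for the muscle isoforms, EHMT2, members called by either limma fit or without overlap, and 12 examples by role, with ranges for the rest. Of other lists, genes called by either fit are named, and at most 2 more with the smallest unadjusted p. SLC2A8, SLC2A10 and SLC2A12 are also named, for the levels of glucose transporters. Members and lists were chosen with earlier results of these data known. Some genes of the other lists are not reported here. Scripts were tested on simulated data. Sequences and positions came from RefSeq (GRCh38.p14) and GENCODE release 29.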

Additional observations from a re-analysis of the deposited data

Results flagged for a closer look

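Of 87 groups of 4 values checked (members, shares and sums in each group), 7 had 1 library far from the other 3, where chance gives about 1 in 20, or 4.35. Libraries numbered 3 gave 6 of the 7. ALDOC was at 4.57 CPM in siG9a library 3, against 1.55 to 1.82 CPM in the other siG9a libraries. PGAM1 was at 3.69 CPM in control library 3, against 0 to 0.61 CPM. LDHA was at 138 CPM in control library 3, against 40.1 to 42.6 CPM. PDK1 was at 21.1 CPM in siG9a library 3, against 7.74 to 8.03 CPM. The LDHB share of lactate dehydrogenase reads was 82.1% in control library 3, against 91.6% to 92.8%. The summed CPM from hexokinase to pyruvate kinase without GAPDH was 3542 in siG9a library 3, against 2733 to 2773. Outside number 3, the PFKFB3 share of PFKFB2 to PFKFB4 reads was 62.1% in control library 1, against 41.2% to 41.4%.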

How the results depend on the processing

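The replicate block moved the counts most. With the block limma called 1717 genes, 7 members and 8 genes of the other lists, edgeR 1711, 7 and 8, and DESeq2 969, 6 and 4. Without it edgeR called no gene, no filter gave 18 genes, and DESeq2 291 genes and 1 member. With 1 library left out, 0 to 300 genes, 0 to 2 members and 0 to 1 other genes were called, the highest without control replicate 3. Without siG9a replicate 4, 2 genes were called, and without both replicate 3 libraries 413 genes, 2 members and 3 other genes. Paired fits with 1 pair left out called 951, 668, 1078 and 1393 genes without pairs 1 to 4, with 5, 4, 5 and 5 members and 2, 2, 6 and 5 other genes. Chosen after seeing the data, the block with a pseudocount of 0.1 called 1363, 7 and 5, with a pseudocount of 5 1710, 7 and 8, and with median-ratio scaling 1693, 7 and 7.

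The median log2 difference of the members stayed below 0, from -0.297 to -0.0724 over 26 alternatives. EHMT2 passed in each of the 10 fits with the block (limma -1.10, edgeR -1.09, DESeq2 -1.12, pseudocount of 0.1 -1.12, pseudocount of 5 -1.01, scaling -1.11, pairs 1 to 4 left out -0.965, -1.16, -1.01 and -1.27) and in none of 16 without it (adjusted p = 0.0619 to 0.464).

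Of 775 member values, 684 kept direction and side of the threshold, 65 passed where they had not, and 26 changed sign, none of them called. PFKFB2 changed sign in edgeR and DESeq2 (0.0119 and 0.0143) and HK1 without both replicate 3 libraries (-0.0608). With 1 library left out the log2 difference ran from -0.0823 to 0.129 for HK1, -0.309 to 0.490 for LDHA, -0.593 to 0.146 for PFKFB2, -0.185 to 0.103 for SLC16A3, -0.275 to 0.0142 for PFKM and -0.0168 to 0.197 for PGK1. Without pairs 1 to 4 in turn, the paired difference was 0.0776, 0.153, -0.0608 and -0.0943 for HK1, 0.489, 0.376, 0.301 and -0.162 for HK2, -0.0448, 0.0818, 0.116 and 0.108 for LDHA, 0.0600, -0.181, -0.0604 and 0.0717 for SLC16A3, 0.0553, -0.176, -0.143 and -0.269 for PFKM and -0.0257, 0.0871, 0.148 and 0.146 for PGK1. The cause was not tested. All 119 recomputed shares and sums moved by less than 1 SD, a limit that leaving out libraries in this way cannot pass. The share of phosphofructokinase reads, siG9a minus control, ran from -10.7 to 0.516 percentage points for PFKP. For PFKL it ran from -2.72 to 6.40, and no other share or sum changed sign. Members near the floor of 3 reads, among them PGAM1, ALDOC and SLC16A3, rest on few reads. For PGAM1, the part of depth and of reads shared with pseudogenes was not tested.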

Other observations

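LDHC, the lactate dehydrogenase chain of sperm, was low, ranging from 0 to 1.84 CPM in control and from 1.71 to 2.42 CPM in siG9a, and was not called (limma, log2 difference 1.26, adjusted p = 0.295; with the block 0.0896). BNIP3, a HIF target of mitochondrial turnover, ranged from 3.69 to 9.72 CPM in control and from 9.68 to 15.0 CPM in siG9a and was not called (limma, log2 difference 0.79, adjusted p = 0.395; with the block 0.141). DLAT, a subunit of pyruvate dehydrogenase, ranged from 19.7 to 27.1 CPM in control and from 10.8 to 21.2 CPM in siG9a (limma, log2 difference -0.60, adjusted p = 0.413; with the block 0.143).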
